A study of Mus musculus with 16 samples.

Results

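Values of 10 endothelial and angiogenesis genes were compared between *Resf1* gene trap x PyMT and wildtype x PyMT mammary tumors. The 10 genes were taken by symbol from a fixed list of names, which was chosen with earlier results of these data known. They were *Pecam1*, *Cdh5*, *Kdr*, *Flt1*, *Tek*, *Vwf*, *Esam*, *Emcn*, *Angpt2* and *Cldn5*. They are 10 of the 23609 genes in the table, and all 10 passed the filter on low values. None of the 10 genes passed the test for a difference between gene trap and wildtype tumors. Over the 10 tumors of both genotypes, *Pecam1*, *Cdh5*, *Kdr*, *Emcn*, *Tek*, *Esam* and *Flt1* were high or low together. The relations of *Cldn5*, *Vwf* and *Angpt2* to *Cdh5* did not pass the test. Without gene trap tumor 2 and wildtype tumor 4, those of *Tek*, *Esam* and *Flt1* no longer passed. Outside the 10 genes, *Pdgfrb*, a gene of pericytes and fibroblasts, also followed *Cdh5*.

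The tumors came from female MMTV-PyMT mice, in which the polyoma middle T antigen is expressed in the mammary epithelium and drives tumor formation. Wildtype tumors carried the PyMT transgene and intact *Resf1*. Gene trap tumors carried the PyMT transgene in animals heterozygous for *Resf1* (Resf1 +/-), with a lentiviral EGFP/Cre trap inserted in the first exon of the gene. Both groups were littermates from crosses of the C57BL/6 trap line with MMTV-PyMT/FVB mice, so the background strain was shared. The trap is carried in the germ line, and the stroma and vessels of a gene trap tumor therefore carry it too. The labels list 16 tumors, 8 in each group, with no age, and values from 5 wildtype and 5 gene trap tumors were used. No label says whether the tumors of a group came from separate animals, so p-values measure the spread between these tumors.

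Endothelial cells line the blood vessels of a tumor and are a minor part of its mass, next to the epithelial tumor cells, fibroblasts, pericytes and leukocytes. They sense vascular endothelial growth factor (VEGF) through the receptors encoded by *Kdr* and *Flt1*, and angiopoietins through the receptor encoded by *Tek*. *Cdh5*, *Pecam1*, *Esam* and *Cldn5* encode proteins of the junctions that hold the cells together. In RNA from a whole tumor, fewer endothelial cells and less RNA per endothelial cell cannot be told apart.

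Reference promoter sequence was found for 5 of the 10 genes (*Emcn*, *Tek*, *Kdr*, *Flt1* and *Cldn5*). Those of *Kdr*, *Emcn* and *Cldn5* are printed because the values of *Kdr* and *Emcn* followed *Cdh5* from tumor to tumor and those of *Cldn5* did not. Each is the stretch of 250 bases before the gene's start, from RefSeq on build GRCm38.p6, which is older than the mm39 build named in the submitters' processing notes. *Kdr* (minus strand) lies at chr5:75978456-75978705, *Emcn* (plus strand) at chr3:137340828-137341077 and *Cldn5* (plus strand) at chr16:18776597-18776846. Capitals mark GGAA, the core letters bound by ETS family factors such as ERG and FLI1, and its reverse complement TTCC.
Kdr: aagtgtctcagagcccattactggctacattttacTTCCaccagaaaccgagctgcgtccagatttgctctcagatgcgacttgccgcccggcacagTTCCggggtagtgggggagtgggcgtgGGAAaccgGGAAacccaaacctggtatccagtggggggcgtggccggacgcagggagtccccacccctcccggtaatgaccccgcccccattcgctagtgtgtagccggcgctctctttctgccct
Emcn: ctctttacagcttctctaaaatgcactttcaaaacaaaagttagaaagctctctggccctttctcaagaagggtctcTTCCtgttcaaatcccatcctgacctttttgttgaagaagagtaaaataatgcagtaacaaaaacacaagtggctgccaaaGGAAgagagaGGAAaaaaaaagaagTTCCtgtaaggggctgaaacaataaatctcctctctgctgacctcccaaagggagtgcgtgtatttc
Cldn5: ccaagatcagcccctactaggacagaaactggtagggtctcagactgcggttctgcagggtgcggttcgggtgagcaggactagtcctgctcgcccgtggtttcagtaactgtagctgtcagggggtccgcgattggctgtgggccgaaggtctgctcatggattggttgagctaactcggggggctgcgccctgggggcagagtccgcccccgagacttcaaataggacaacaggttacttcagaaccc

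GGAA in either orientation was found 4 times in the *Kdr*, *Emcn* and *Flt1* stretches, 2 times in *Tek* and 0 times in *Cldn5*. Most promoters hold these letters: 93.4% of 32851 RefSeq promoter stretches of the same length had at least 1, with a median of 3. The longer word ACAGGAA, which contains GGAA, was found 2 times in *Emcn* and in none of the other 4 stretches, and in 7.2% of all. Base composition differed widely, from 40.8% G and C in *Emcn* through 51.2% in *Tek*, 59.6% in *Cldn5* and 61.6% in *Kdr* to 70.4% in *Flt1*, against a median of 52.4% for all stretches. These are matches of letters in a short window and describe no binding.

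The deposited values are estimated counts that the authors had normalized between tumors, here called normalized values, so the depth at which a tumor was sequenced is unknown. Their totals lay between 31995078 and 42153593. *Resf1* itself was 4216, 4397, 3881, 4487 and 3517 in wildtype tumors 1 to 5 and 4029, 3066, 3686, 3392 and 3409 in gene trap tumors 1 to 5. The groups overlapped, and the gene trap geometric mean, the fold behind each mean log2 value, was 0.858-fold that of wildtype (95% interval 0.748 to 0.984, n = 5 per group, exact two-sided permutation p = 0.0635, limma unadjusted p = 0.0313 and adjusted p = 0.99972). Gene trap tumor 2 stood apart from the rest. Genes with a transcript under 1000 bases were lower there by a median of -0.323 on the log2 scale, against -0.03 to 0.108 in the other 9 tumors, and genes of 1000 to 2000 bases were higher by 0.105, against -0.0446 to 0.0241. The median was 0.0406 for 2000 to 4000 bases, against -0.0206 to 0.00535. It was -0.0441 for 4000 to 8000 bases, against -0.0206 to 0.0359, and -0.108 for over 8000 bases, against -0.0612 to 0.103. Counts and medians over the 10 genes, and the values that change most, are therefore also given without this tumor. The label of the tissue fitted its markers, with *Epcam* between 19190.0 and 25278 and *Krt18* between 18434 and 35379 in the 10 tumors.

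*Kdr* encodes VEGFR2, the main signaling receptor for VEGF on endothelial cells. It was 876, 698, 609, 488 and 913 in wildtype tumors 1 to 5 and 848, 431, 924, 679.9 and 637 in gene trap tumors 1 to 5. The highest and the lowest value both belonged to gene trap tumors, and the groups overlapped. *Flt1* encodes VEGFR1, which binds VEGF tightly and has a soluble form that holds it back. It was 813, 696, 602, 481 and 706 in wildtype tumors 1 to 5 and 608, 380.3, 764, 648 and 498 in gene trap tumors 1 to 5. Gene trap tumor 2 was the lowest of all for *Flt1* as it was for *Kdr*. The gene trap geometric mean was 0.975-fold that of wildtype for *Kdr* (95% interval 0.703 to 1.35) and 0.868-fold for *Flt1* (95% interval 0.655 to 1.15). Exact two-sided permutation p was 0.849 and 0.381.

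None of the ligands of these receptors passed the test either. *Vegfa*, the main angiogenic ligand, varied nearly as much within a genotype as over all tumors, from 1208 to 3499 in wildtype and from 1227 to 3238 in gene trap tumors. Its means were 2100 ± 926 and 2006 ± 811 (SD, n = 5 each). The placental growth factor gene *Pgf*, whose product binds VEGFR1, was 789 ± 265 and 710 ± 183. *Vegfc*, a ligand of the lymphatic receptor, was 74.5 ± 6.33 and 65.2 ± 15.4. Among the co-receptors, *Nrp1* was 959 ± 244 in wildtype and 944 ± 164 in gene trap tumors, and *Nrp2* was 594 ± 101 and 572 ± 134. Of the 8 VEGF ligands and other VEGF receptors, 3 were higher and 5 lower in gene trap tumors. Of these 8, 0 had an unadjusted p under 0.05 (limma), against 2.28% of all tested genes.

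*Tek* encodes TIE2, the receptor for the angiopoietins. It was 308, 275, 315, 194 and 377 in wildtype tumors 1 to 5 and 404, 182, 305, 222 and 243 in gene trap tumors 1 to 5. Gene trap tumors therefore held both ends of its range. *Angpt2*, the angiopoietin that endothelial cells make themselves and that destabilizes vessels, was 269.6, 266, 177, 245 and 292 in wildtype and 289, 188, 227, 229 and 252 in gene trap tumors. It spread less than *Tek*, with a highest value 1.65 times the lowest, against 2.22 times for *Tek*. The gene trap geometric mean was 0.909-fold that of wildtype for *Tek* (95% interval 0.651 to 1.27) and 0.953-fold for *Angpt2* (95% interval 0.752 to 1.21), with exact two-sided permutation p of 0.595 and 0.659.

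The opposing ligand *Angpt1*, which pericytes and other stromal cells make and which stabilizes vessels, was 637 ± 117 in wildtype and 529 ± 73.4 in gene trap tumors (SD, n = 5 each). Its log2 fold change of -0.26 ± 0.14 (SE) had an unadjusted p of 0.0913 and an adjusted p of 0.99972 (limma). *Tie1*, the partner receptor of TIE2, was 368 ± 85.2 and 347 ± 71.9. *Ptprb*, which encodes the phosphatase VE-PTP that acts on TIE2, was 996 ± 222 and 941 ± 288. All 4 angiopoietin and TIE partners measured (*Angpt1*, *Angpt4*, *Tie1* and *Ptprb*) had lower gene trap means on the log2 scale, as did 48.6% of all tested genes. *Angpt4* lay near the filter of 10, at 11.9 ± 2.46 and 11.9 ± 5.78 (SD, n = 5 each). Of the 4 partners, 0 passed at either threshold, against 0% of all tested genes at the adjusted and 2.28% at the unadjusted one (limma).

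*Pecam1* and *Cdh5* encode CD31 and VE-cadherin, both at the contacts between endothelial cells. *Pecam1* was 1192, 1273, 1136, 902 and 1672 in wildtype tumors 1 to 5 and 1479, 786, 1430.2, 1012 and 976 in gene trap tumors 1 to 5. *Cdh5* was 795, 802, 640.45, 524 and 958 in wildtype and 842, 493, 872, 609 and 581 in gene trap tumors. For both genes wildtype tumor 5 was the highest and gene trap tumor 2 the lowest. The gene trap geometric mean was 0.912-fold that of wildtype for *Pecam1* (95% interval 0.683 to 1.22) and 0.910-fold for *Cdh5* (95% interval 0.684 to 1.21). Exact two-sided permutation p was 0.556 and 0.540.

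*Esam*, an immunoglobulin-like adhesion molecule of endothelial tight junctions, was 247, 286, 261, 222 and 376 in wildtype and 319.75, 234, 289, 259.5 and 244 in gene trap tumors. All gene trap values lay inside the wildtype range. *Emcn* encodes endomucin, a sialomucin of capillary and venous endothelium. It was 327, 255, 218, 171 and 342 in wildtype and 327, 157, 321, 213 and 247 in gene trap tumors. Its groups had nearly the same mean, 262 ± 72.1 and 253 ± 72.3 (SD, n = 5 each), with an exact two-sided permutation p of 0.762. For *Esam* the means were 278 ± 59.1 and 269 ± 35.1, with an exact two-sided permutation p of 0.810.

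*Cldn5*, the claudin of endothelial tight junctions, was the 1 gene of the 10 with a higher gene trap mean. It was 60.5, 88.1, 88.0, 55.8 and 109 in wildtype and 68.9, 115, 116, 81.8 and 85.1 in gene trap tumors. Gene trap tumors 2 and 3 lay above every wildtype tumor, and wildtype tumors 1 and 4 lay below every gene trap tumor. The gene trap geometric mean was 1.17-fold that of wildtype (95% interval 0.838 to 1.64), with an exact two-sided permutation p of 0.333. *Cldn5* has the shortest transcript of the 10 genes, 1416 bases, in the length class that was higher in gene trap tumor 2. On the log2 scale it lay 0.44 above its mean in that tumor, and 0.35 above after a correction for transcript length, while *Esam*, of the same length class, lay at -0.21 there. The part of transcript length in the *Cldn5* value was not tested.

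*Vwf* encodes von Willebrand factor, a clotting protein made by endothelial cells and megakaryocytes. It was 366, 595, 515, 353 and 351 in wildtype and 475, 288, 502, 326 and 463 in gene trap tumors. Wildtype tumor 2 was the highest, and the same tumor had the highest sum of red blood cell genes, 64631 against 4217 to 22914 in the other 9. The platelet genes *Itga2b* and *Gp1ba* were 115 and 84.6 there, within the ranges of the other tumors, 88.9 to 212 and 65.2 to 117. The part of blood in the *Vwf* value was not tested. The gene trap geometric mean of *Vwf* was 0.943-fold that of wildtype (95% interval 0.699 to 1.27), with an exact two-sided permutation p of 0.746.

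**Figure D1:**
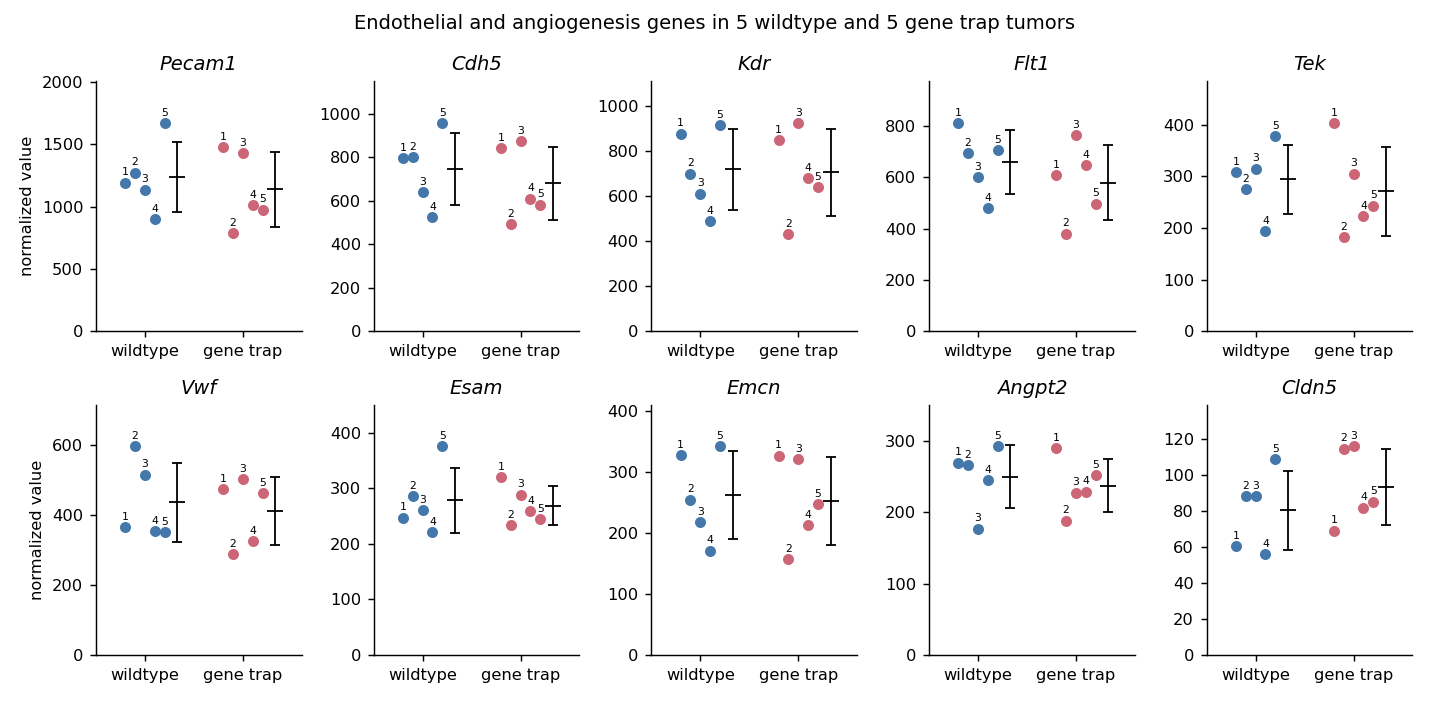
Normalized value of each of the 10 genes (y axes, starting at 0) in 5 wildtype tumors (blue) and 5 gene trap tumors (red). Numbers give the tumor and bars the mean ± SD; the groups overlapped for all 10 genes, and gene trap tumor 2 was the lowest for 7.

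In the fit over all 21034 tested genes, 0 of the 10 genes had an adjusted p under 0.05 (limma), and 0% of all tested genes did. At an unadjusted p under 0.05 the count was 0 of 10, against 2.28% of all genes, which comprised 278 higher and 201 lower in gene trap tumors. The groups overlapped for all 10 genes, and 0.528% of all genes had groups that did not overlap. The log2 fold changes ran from -0.20 for *Flt1* to 0.23 for *Cldn5*, with 9 of the 10 genes lower in gene trap tumors. Their median was -0.08, against 0.00 over all tested genes, of which 48.6% were lower. The 95% intervals of the single genes reached from -0.62 to 0.71 on the log2 scale, so differences within those limits were not resolved with 5 tumors per group.

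Of the 9 lower genes, 4 (*Flt1*, *Pecam1*, *Cdh5* and *Tek*) stayed lower whichever tumor was left out, and the sign of the other 5 turned when 1 tumor or another was left out. Without gene trap tumor 2, 4 of the 10 genes were lower in gene trap tumors and the median was 0.01. The log2 fold change was then -0.06 for *Flt1*, -0.01 for *Pecam1*, -0.03 for *Cdh5*, -0.01 for *Tek* and 0.15 for *Cldn5*, and it was above 0 for the others, from 0.01 for *Angpt2* to 0.13 for *Kdr*. Without wildtype tumor 5, 6 were lower and the median was -0.01. Without wildtype tumor 4, 9 were lower and the median was -0.18. With tumors weighted by how closely they followed their group, 1 of the 10 was lower and the median was 0.03. The calls did not change in any of these fits, with 0 of 10 genes at an unadjusted p under 0.05.

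**Figure D2:**
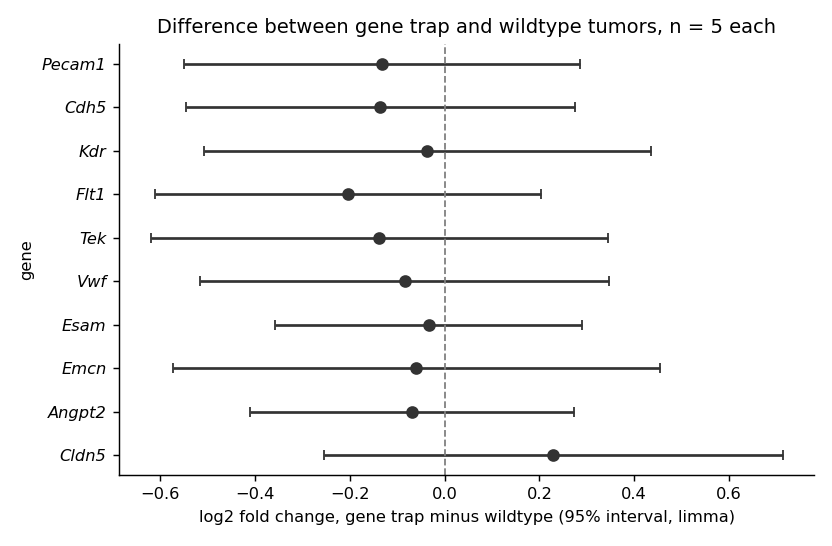
Log2 fold change of each gene, gene trap minus wildtype (x axis), with its 95% interval from limma (n = 5 per group). Every interval includes 0, and *Cldn5* is the 1 gene to the right of it.

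Differences among tumors of one genotype were larger than those between genotypes. Averaged over the 10 genes, the log2 deviation from each gene's mean was 0.34 in wildtype tumor 5, 0.27 in gene trap tumor 3 and 0.23 in gene trap tumor 1. It was -0.43 in gene trap tumor 2 and -0.37 in wildtype tumor 4. The high and the low tumors thus included both genotypes. Gene trap tumor 2 had the lowest value of the 10 tumors for 7 of the 10 genes, and wildtype tumor 5 had the highest for 5. Within groups the SD of the log2 values had a median of 0.357 over the 10 genes, against 0.251 over all tested genes, and ran from 0.24 for *Esam* to 0.43 for *Emcn*.

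Not every gene followed this order. In gene trap tumor 2, where 9 of the 10 genes lay below their means, *Cldn5* lay 0.44 above its mean. These 9 genes stayed below after a correction for transcript length. The deviation then was -0.41 for *Vwf* (from -0.52), -0.58 for *Flt1* (from -0.67) and -0.61 for *Kdr* (from -0.68). It was -0.28 for *Esam* (from -0.21) and -0.69 for *Emcn* (from -0.66). In wildtype tumor 5, where 9 lay above, *Vwf* lay at -0.23. In wildtype tumor 3 *Angpt2* was at its lowest, -0.44, while *Vwf* was at 0.32. In gene trap tumor 1 *Tek* was at its highest, 0.56, while *Flt1* was at 0.01.

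**Figure D3:**
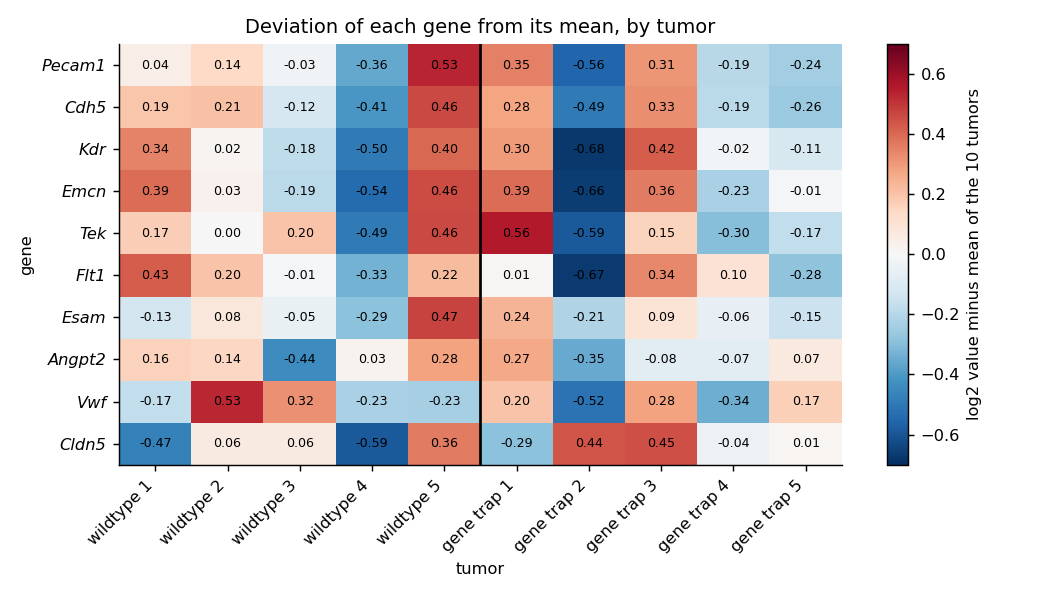
Deviation of each gene's log2 value from its mean over the 10 tumors (color and printed number), for wildtype tumors on the left and gene trap tumors on the right of the line. Most genes are blue together in gene trap tumor 2 and wildtype tumor 4 and red together in wildtype tumor 5, with *Cldn5* in gene trap tumor 2 and *Vwf* in wildtype tumor 5 as exceptions.

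To describe which genes moved together, each was set against *Cdh5* over the 10 tumors, in 17 relations with Benjamini-Hochberg adjustment and 100000 resamples. With 5 tumors, a genotype on its own is too small for a correlation, and none is given within one. All points share the same normalization, which sets each tumor's values relative to the rest of its RNA. *Pecam1* followed *Cdh5* most closely, with Pearson's r = 0.975 (permutation p = 1e-05, the smallest the resamples can give, adjusted p = 0.00017) and Spearman's rho = 0.988 (permutation p = 1e-05). For *Emcn* r was 0.938 (permutation p = 0.00014, adjusted p = 0.000793) and rho 0.879 (permutation p = 0.00172). For *Kdr* r was 0.936 (permutation p = 6e-05, adjusted p = 0.00051) and rho 0.915 (permutation p = 0.00067). Without gene trap tumor 2 and wildtype tumor 4, the tumors farthest from the median of *Cdh5*, r was 0.954 for *Pecam1*, 0.878 for *Kdr* and 0.870 for *Emcn*. Taken as deviations from the group means, r was 0.973, 0.948 and 0.946.

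*Tek*, *Esam* and *Flt1* also followed *Cdh5* over all 10 tumors. For *Tek* r was 0.885 (permutation p = 0.00094, adjusted p = 0.00314) and rho 0.818 (permutation p = 0.00565). For *Esam* r was 0.850 (permutation p = 0.00111, adjusted p = 0.00314) and rho 0.939 (permutation p = 0.00021). For *Flt1* r was 0.845 (permutation p = 0.00168, adjusted p = 0.00408) and rho 0.794 (permutation p = 0.00911). Without the 2 farthest tumors r was 0.757, 0.783 and 0.678, with adjusted permutation p of 0.0821, 0.0537 and 0.12, so these relations no longer passed over the 8 tumors left.

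The other 3 genes did not follow *Cdh5* beyond the threshold. For *Angpt2* r was 0.616 (permutation p = 0.0611, adjusted p = 0.104) and rho 0.539 (permutation p = 0.115). For *Vwf* r was 0.438 (permutation p = 0.200, adjusted p = 0.31) and rho 0.430 (permutation p = 0.216), and r was 0.03 without the 2 farthest tumors. For *Cldn5* r was 0.162 (permutation p = 0.648, adjusted p = 0.648) and rho 0.297 (permutation p = 0.408).

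Among genes of other cells, *Pdgfrb*, a receptor of pericytes and fibroblasts, followed *Cdh5* with r = 0.872 (permutation p = 0.00084, adjusted p = 0.00314) and rho = 0.867 (permutation p = 0.00221), and r was 0.859 without the 2 farthest tumors. *Epcam*, a marker of the epithelial tumor cells, ran the opposite way with r = -0.653 (permutation p = 0.0340, adjusted p = 0.0718) and rho = -0.576 (permutation p = 0.0895). Its r was -0.794 without the 2 farthest tumors (adjusted permutation p = 0.0405). It was -0.639 in deviations from the group means (adjusted permutation p = 0.0889) and -0.542 after a correction for transcript length (adjusted permutation p = 0.178). *Col1a1*, a fibroblast collagen, had r = 0.650 (permutation p = 0.0380, adjusted p = 0.0718) and rho = 0.576 (permutation p = 0.0891). *Vegfa* had r = -0.269 (permutation p = 0.442, adjusted p = 0.536) and rho = -0.212 (permutation p = 0.560), and *Resf1* r = 0.283 (permutation p = 0.420, adjusted p = 0.536) and rho = 0.212 (permutation p = 0.561). For the macrophage gene *Adgre1* r was 0.356, for the platelet gene *Pf4* it was -0.256 and for the adipocyte gene *Adipoq* it was 0.185, with adjusted permutation p of 0.425, 0.547 and 0.648. In all, 7 of the 17 relations had an adjusted p under 0.05, those of 6 of the 10 genes and of *Pdgfrb*.

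**Figure D4:**
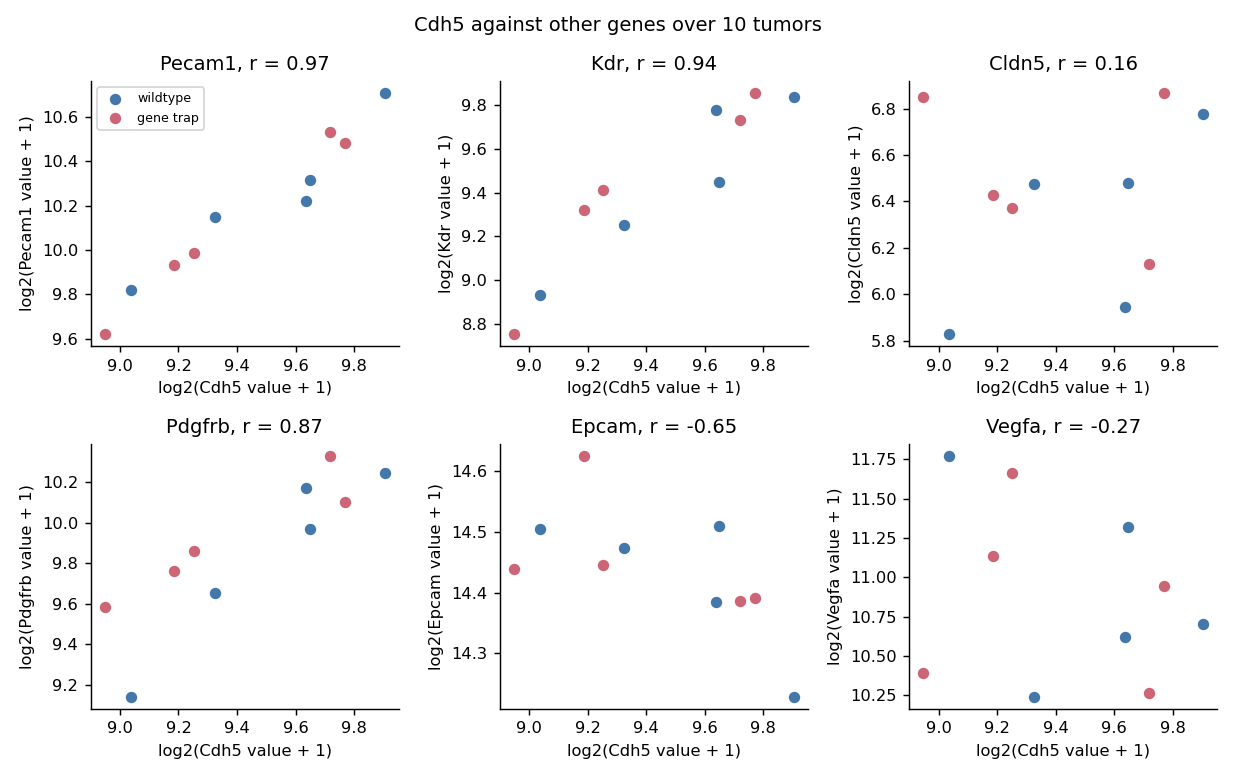
Log2 normalized value of 6 genes (y axes) against that of *Cdh5* (x axes) in 5 wildtype (blue) and 5 gene trap (red) tumors, with Pearson's r over the 10 tumors. *Pecam1*, *Kdr* and *Pdgfrb* rise with *Cdh5*, while *Cldn5* and *Vegfa* scatter.

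Because most of the 10 genes differed together between tumors, 12 ratios within a tumor were compared between genotypes. The ratio of *Flt1* to *Kdr*, the VEGFR1 and VEGFR2 genes, was 0.928, 0.996, 0.988, 0.984 and 0.774 in wildtype tumors 1 to 5 and 0.717, 0.882, 0.827, 0.953 and 0.781 in gene trap tumors 1 to 5. The groups overlapped, since wildtype tumor 5 was low and gene trap tumor 4 high, with an exact two-sided permutation p of 0.127 and an adjusted p of 0.857. Without wildtype tumor 5, the lowest of its group, the unadjusted exact permutation p was 0.0317. The log2 difference was then -0.23, against -0.17 over all tumors. The ratio of *Cldn5* to *Cdh5* was 0.0761, 0.110, 0.137, 0.106 and 0.113 in wildtype and 0.0819, 0.232, 0.133, 0.134 and 0.146 in gene trap tumors. Gene trap tumor 2 had the highest value, and the exact two-sided permutation p was 0.254 (adjusted p = 0.857). The log2 difference of 0.36 was 0.18 without gene trap tumor 2 (exact permutation p = 0.460). It was 0.55 without gene trap tumor 1, the lowest of its group (unadjusted exact permutation p = 0.0317). Each of the 12 ratios was compared with each tumor left out in turn, with no adjustment for that number of comparisons.

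The ratio of *Angpt2* to *Angpt1*, the destabilizing to the stabilizing angiopoietin, was 0.409 ± 0.130 in wildtype and 0.4504 ± 0.0603 in gene trap tumors (SD, n = 5 each, exact permutation p = 0.429). That of *Vegfa* to *Kdr* was 3.28 ± 2.30 and 3.00 ± 1.28 (exact permutation p = 0.976). The ratios to *Cdh5* hardly differed in mean for *Pecam1* (1.67 ± 0.117 and 1.67 ± 0.0596) and for *Tek* (0.397 ± 0.0563 and 0.396 ± 0.0531). Adjusted exact permutation p was at least 0.857 for all 12 ratios.

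Levels of different genes can be compared only per length, so the values were divided by the length of the longest coding transcript in kilobases. *Pecam1* was the highest of the 10, at 345 per kilobase, above *Cdh5* at 178 in 10 of 10 tumors. *Cdh5* was above *Esam* (147) in 9 of 10 and *Esam* above *Kdr* (120) in 8 of 10. *Kdr* was above *Emcn* (99.5) in 10 of 10 tumors, while *Emcn* was above *Flt1* (89.9) in 6 of 10. *Flt1* was above *Angpt2* (68.4) in 10 of 10, *Angpt2* above *Cldn5* (61.2) in 7 of 10, *Cldn5* above *Tek* (60.7) in 5 of 10 and *Tek* above *Vwf* (47.9) in 8 of 10. The ranges over tumors overlapped for each pair of neighbours in this order. The order also depends on the length used: over all exons of a gene, *Pecam1* and *Cdh5* were still the highest (190 and 169), and *Emcn* (47.6) and *Flt1* (45.9) lay below *Angpt2* (66.01), *Cldn5* (61.2) and *Tek* (60.0).

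Other endothelial genes were described in the same way. Of 16 further surface and junction genes, 5 were higher and 11 lower in the gene trap group, and their median log2 fold change was -0.01. The most abundant were *Podxl*, which podocytes and some epithelia also express, at 1444 ± 80.2 in wildtype and 1580 ± 115 in gene trap tumors, and *Cd93*, an endothelial lectin-like receptor, at 1217 ± 260 and 1134 ± 271 (SD, n = 5 each). Of 9 endothelial transcription factors, 6 were higher and 3 lower, with a median of 0.02; *Epas1* was 842 ± 63.1 and 870 ± 201, and the ETS factor gene *Fli1* was 260 ± 42.8 and 261 ± 45.5. Of 6 sprouting and tip cell genes, 3 were higher and 3 lower, with a median of -0.02, and *Apln*, the apelin gene of tip cells, ranged from 304 to 1107 in wildtype and from 353 to 1153 in gene trap tumors. All 4 endothelial activation genes were lower in mean log2 value, with a median of -0.11, and of these *Vcam1* was 747 ± 119 and 693 ± 157. Of 6 lymphatic endothelial genes, 4 were higher and 2 lower, with a median of 0.03. None of these 41 genes had an unadjusted p under 0.05 (limma), against 2.28% of all genes.

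Among 6 angiogenesis inhibitors, 2 were higher and 4 lower in gene trap tumors. *Timp3*, a metalloproteinase inhibitor that also blocks VEGFR2, was the 1 gene of 67 tested on the pathway lists with an unadjusted p under 0.05 (limma), a share of 1.49% against 2.28% of all genes. It was 3066, 3966, 3126, 3812 and 3619 in wildtype and 3746, 2646, 3160.4, 2109 and 2690.2 in gene trap tumors. In 3 of the 5 gene trap tumors it lay below every wildtype tumor, and its log2 fold change was -0.31 ± 0.14 (SE, unadjusted p = 0.0434, adjusted p = 0.99972). *Thbs1*, the thrombospondin 1 gene, was 17537 ± 4312 and 14691 ± 2284. Of 8 hypoxia response genes, 1 was higher and 7 lower, with a median of -0.07 and no unadjusted p under 0.05; *Ldha* was 27698 ± 3969 and 26565 ± 4852.

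Endothelial genes outside the 10 followed them to different degrees. Pearson's r of single genes with the mean of the 10 genes over the 10 tumors had a median of 0.80 over the 16 further surface and junction genes, and of 0.01 over all tested genes, whose middle part ran from -0.36 to 0.37. These are descriptions over the same tumors and normalization. *Podxl* was the exception among the 16, at -0.31. The medians were lower for the other lists: 0.71 for endothelial activation genes, 0.57 for lymphatic genes, 0.45 for angiopoietin and TIE partners, 0.34 for VEGF ligands and receptors and 0.28 for sprouting and tip cell genes. Transcription factor genes had a median of 0.43 and ran from -0.26 for *Lyl1* and 0.06 for *Epas1* to 0.80 for *Fli1* and 0.81 for *Tal1*. Pericyte markers had a median of 0.50, from -0.63 for *Notch3* to 0.88 for *Pdgfrb*, and *Rgs5* was at 0.79. Fibroblast markers had a median of 0.58, macrophage markers of 0.02 and T cell markers of 0.46. Epithelial markers had a median of -0.65, from -0.87 for *Krt18* to 0.13 for *Cdh1*. Hypoxia response genes had a median of -0.38.

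The marker sums of the other cell types overlapped between genotypes. Epithelial markers summed to 82699 to 108470 in wildtype and 84831 to 115300 in gene trap tumors, and pericyte markers to 4999 to 7402 and 4963 to 6932. Fibroblast markers summed to 39865 to 85294 in wildtype and 52472 to 121540 in gene trap tumors, the highest being gene trap tumor 1. Macrophage markers summed to 9353 to 14668 and 9765 to 13995. Gene trap tumor 2, the lowest for 7 of the 10 genes, had the highest epithelial sum of the 10 tumors, 115300. *Krt18* (35379), *Cldn3* (11081) and *Cldn7* (3893) were at their highest there. *Epcam* (22218), *Cdh1* (11613), *Krt8*, *Krt19* and *Cldn4* lay within the ranges of the other tumors. The part of transcript length in these values was not tested. No gene on the cell type lists had an unadjusted p under 0.05 (limma), among 48 tested, against 2.28% of all tested genes. For red blood cell genes, all 5 had lower means in the gene trap group, by a median of -0.72 on the log2 scale, and their sums overlapped (4813 to 64631 in wildtype, 4217 to 22914 in gene trap). The sum of 64631 was that of wildtype tumor 2 alone, and the other wildtype tumors ran from 4813 to 14146. T cell markers summed to 81.5 to 247 and 74.0 to 397, skeletal muscle markers to 673 to 10218 and 1610.0 to 4745, platelet and megakaryocyte markers to 275 to 329 and 220.4 to 419, and *Adipoq*, the 1 adipocyte marker of 6 in the table, was 147 to 573 and 50.8 to 286. The part of this makeup in the values of the 10 genes was not tested.

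**Figure D5:**
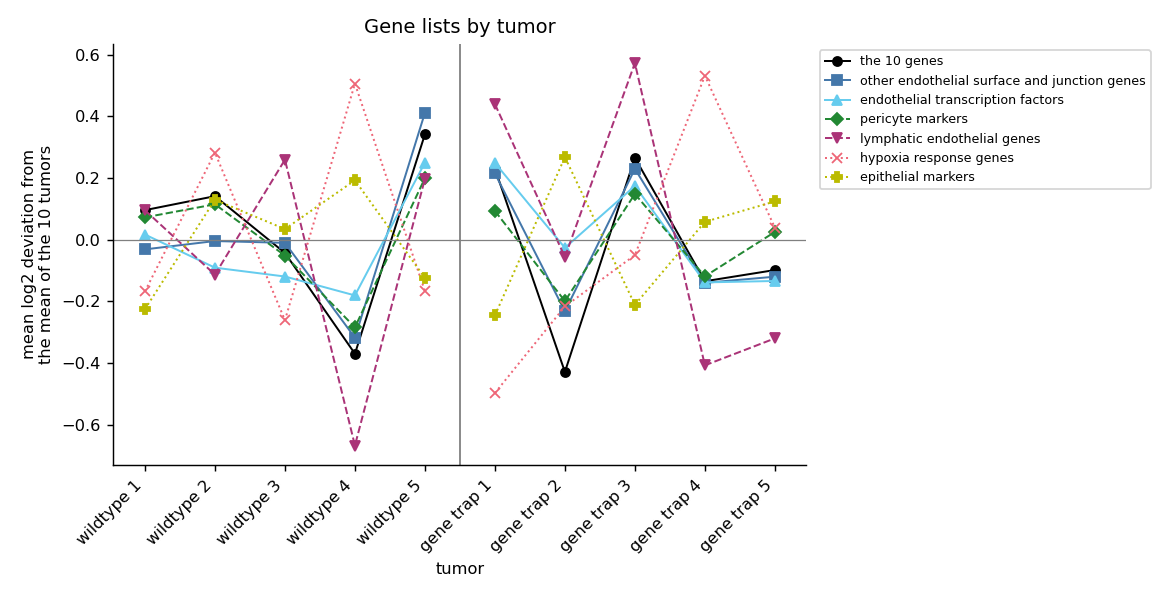
Mean log2 deviation of the genes of 7 lists (y axis) in each tumor (x axis), with lines joining the values of one list within a genotype. The 10 genes (black) and the other endothelial surface and junction genes (blue) run together, from -0.43 and -0.23 in gene trap tumor 2 to 0.34 and 0.41 in wildtype tumor 5. Epithelial markers run the other way in most tumors, from 0.27 in gene trap tumor 2 to -0.12 in wildtype tumor 5. In wildtype tumor 2 the 10 genes (0.14) and the epithelial markers (0.13) both lie above 0.

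The 15 genes outside the list whose log2 values were most like the mean of the 10 genes were ranked by Pearson's r over the 10 tumors, with no test. *Tie1* came first, with r = 0.981, and kept 0.979 without gene trap tumor 2. *Ptprb* was among them at 0.928, and these were the 2 genes of the 15 that stand on a list of endothelial genes. The others with a gene name were *Dennd4a* (0.950), *Arap3* (0.940), *Enox2* (0.935), *Klhl4* (0.933), *She* (0.933), *Nhsl2* (0.932), *St8sia4* (0.927) and *9930111J21Rik1* (0.937). The remaining 5 were *AC154486.3* (0.956), *Gm14049* (0.955), *Gm11604* (0.945), *Gm45479* (0.928) and *Gm6741* (0.925). Their log2 fold changes, gene trap minus wildtype, ran from -0.20 for *Gm11604* to 0.06 for *Gm45479*.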

How the data were processed

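Total RNA of mammary tumors was extracted with Trizol and made into libraries with the TruSeq Stranded Total RNA kit. The submitters' processing notes name mm39, Partek, STAR (version 2.7.8a) and DESeq2. The annotation and counter are not given in the sources used here. The authors deposited a signal per gene, estimated counts scaled between tumors by the median ratio method. There were 0 zeros, and the median ratio of each tumor to the geometric mean was 1.005 to 1.006. Whole reads and depth could not be recovered. Of 16 columns, 10 matched a tumor's label by name and 6 were not used. Replicate numbers are the labels' own.

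Values had 1 added and were taken to log2. The fit, with limma 3.58.1 in R 4.3.3, held the 21034 of 23609 genes whose mean was 10 or more, with a variance trend, no covariate and Benjamini-Hochberg adjustment. For single values all 252 ways to arrange 5 and 5 tumors were enumerated in an exact two-sided permutation test (smallest p 0.00794), and relations to *Cdh5* by permutation. The analysis code was tested on simulated data. Python 3.11.15 with scipy 1.17.1, numpy 2.4.6 and pandas 2.3.3 was used, and figures were drawn with matplotlib 3.10.9. The transcript length is that of the longest coding transcript in GENCODE mouse release M21, which is on an older build. No coordinates are therefore given apart from those of the printed promoter stretches. Symbols were found for 22899 (97%) of the IDs.

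The genes named are the 10 genes, *Resf1*, the 15 genes most like the mean of the 10, the genes of each pathway list with an unadjusted p under 0.05, and the 2 most abundant genes of each pathway and cell type list. Any other gene named was chosen with its values in view. The 10 genes and all lists were chosen with earlier results of these data known. *Gp1bb*, *Gp6*, *Plin1*, *Cidec*, *Lep*, *Retn*, *Adrb3* and *Myh4* were listed as markers and not analysed here. Alternatives were other pseudocounts and filters, quantile and TMM scaling, no variance trend, weights per tumor, a block for the replicate number, leaving out each tumor and, added after the data were seen, a correction for transcript length.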

Additional observations from a re-analysis of the deposited data

Results flagged for a closer look

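One value lay far from the others of its group. The ratio of *Vwf* to *Cdh5* was 0.797 in gene trap tumor 5 and 0.535 to 0.585 in the other 4 gene trap tumors, while wildtype tumors ran from 0.367 to 0.804. In all 46 groups of 5 tumors were examined, from 23 measures, and chance alone gives about 2.3 such values.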

How the results depend on the processing

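With 5 tumors per group and no known depth, the intervals bound each gene only to within about the spread of the tumors. In 20 alternative fits 0 of the 10 genes had an adjusted or an unadjusted p under 0.05, and 0 of all genes had an adjusted p under 0.05 (limma). The number of all genes with an unadjusted p under 0.05, 479 in the reported fit, ran from 307 to 694 when tumors were left out, with 307 without wildtype tumor 4, and from 326 to 580 otherwise. The median log2 fold change of the 10 genes ran from -0.1838 to 0.01246 when tumors were left out and from -0.08 to 0.03 otherwise.

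Signs near 0 turned. With weights per tumor the log2 fold change was 0.0235 for *Pecam1*, 0.0182 for *Cdh5*, 0.159 for *Kdr*, 0.0135 for *Tek*, 0.0212 for *Vwf*, 0.0402 for *Esam*, 0.144 for *Emcn* and 0.0449 for *Angpt2*. The cause was not tested. When tumors were left out it ran from -0.188 to 0.0104 for *Angpt2*, from -0.202 to 0.0984 for *Emcn*, from -0.109 to 0.0798 for *Esam*, from -0.165 to 0.128 for *Kdr* and from -0.166 to 0.0369 for *Vwf*. The log2 difference of the ratio to *Cdh5* ran from -0.0065 to 0.183 for *Angpt2*, from -0.0341 to 0.0264 for *Pecam1*, from -0.0729 to 0.0770 for *Tek* and from -0.116 to 0.166 for *Vwf*, and that of *Vegfa* to *Kdr* from -0.211 to 0.324. With a correction for transcript length that of *Tek* to *Cdh5* was 0.00092, against -0.0022. Of the 2 ratios whose unadjusted exact permutation p fell to 0.0317 when 1 tumor was left out, that of *Flt1* to *Kdr* ran from -0.233 to -0.115 and that of *Cldn5* to *Cdh5* from 0.177 to 0.551. *Flt1* stayed lower and *Cldn5* higher in all 20 alternatives.

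Between 5 and 8 of the 17 relations to *Cdh5* passed under the alternatives. That of *Pf4* was 0.127 without the 2 farthest tumors, and that of *Col1a1* was 0.752 (adjusted permutation p = 0.0257) in deviations from the group means. Equal replicate numbers name different animals in the groups, and the deviations of such tumors did not go together (correlations -0.156 to 0.149). With the replicate number as a block 426 genes had an unadjusted p under 0.05, the 10 genes had none, and the median was -0.0767.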
